A study of Mus musculus with 12 samples.

Results

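The genes described here are the 9 enzymes of the methionine cycle and of transsulfuration, namely Mtr, Mtrr, Mat2a, Mat2b, Ahcy, Ahcyl1, Ahcyl2, Cbs and Cth. They were chosen by symbol from the 55573 genes of the count table, with earlier results of these data known. RNA was sequenced from mouse embryonic fibroblasts (MEFs) of strain C57BL/6, grown from 3 embryos taken at E13.5 (embryonic day), which the labels call clones 1, 2 and 3. All cells carried a cassette of Oct4, Sox2, Klf4 and Myc (OSKM) that doxycycline switches on, and all were kept for 72 h in medium for induced pluripotent stem cells. The groups were MEF (no doxycycline), MEF+B12 (2 µM vitamin B12), OSKM (1 µg/ml doxycycline) and OSKM+B12 (both), with 1 library from each clone in every group. For doxycycline the value of the labels was used, and the paper's methods give it in mg rather than µg. Doxycycline was given only to the OSKM groups, so the drug and the factors cannot be told apart. The titles of the clone 1 libraries carry a later year than those of clones 2 and 3, so year and embryo cannot be told apart for clone 1.

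In the methionine cycle, methionine synthase (Mtr) uses a cobalamin (vitamin B12) cofactor to put a methyl group from folate onto homocysteine, which regenerates methionine. Methionine adenosyltransferase turns methionine into S-adenosylmethionine (SAM), the methyl donor for DNA, RNA, histones and small molecules. The by-product S-adenosylhomocysteine is split to homocysteine, which either returns to the cycle or leaves it through transsulfuration, where it is converted by way of cystathionine to cysteine, a precursor of glutathione. The libraries were made to ask what B12 does to transcription early in reprogramming, and of the 9 enzymes Mtr is the one that uses it.

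The 12 libraries held between 56971244 and 79236795 counts. The 10 fibroblast markers summed to between 86773 and 138532 counts per 1e6 counts (CPM) in every library, and the 6 pluripotency markers to at most 0.426 CPM, with Lin28a and Utf1 at 0. Pou5f1, the gene for Oct4, was at 18.5 to 20.7 CPM when clones 1 and 2 were induced (4 libraries), at 2.86 and 2.34 CPM in induced clone 3, and no higher than 0.468 CPM without doxycycline. Clone 3 thus stood apart in the level of the induced factor. In bulk RNA, fewer cells of a type and less RNA per cell cannot be told apart.

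Ahcy is described with its sequence first, because its counts cannot be separated from those of other genes. Ahcy (ENSMUSG00000027597, GRCm38 chromosome 2, 155059310 to 155074497, minus strand) encodes adenosylhomocysteinase, which hydrolyses S-adenosylhomocysteine to homocysteine and adenosine. Of its 31-base sequence words, 71.4% also occur in 4 other genes. The main copy is Gm4737 on chromosome 16, annotated as protein coding, and the next is Gm9826 on chromosome 1, annotated as a processed pseudogene. Over the 1296 coding bases of Ahcy, Gm4737 differed at 4 bases (99.7% identical) and Gm9826 at 11 (99.2% identical). The longest stretches without a difference were 575 and 500 bases, so many read pairs from 1 gene match another equally well. The 150 coding bases from 919 to 1068, counted from the A of the start codon, are shown because they hold differences from both copies. In Ahcy they lie in exons 8 and 9 (chromosome 2, between 155062248 and 155063833), and capitals mark the bases at which a copy differs.

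Ahcy: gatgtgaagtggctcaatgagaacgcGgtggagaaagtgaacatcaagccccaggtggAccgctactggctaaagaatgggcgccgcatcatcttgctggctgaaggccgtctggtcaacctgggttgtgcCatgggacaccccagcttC
Gm4737: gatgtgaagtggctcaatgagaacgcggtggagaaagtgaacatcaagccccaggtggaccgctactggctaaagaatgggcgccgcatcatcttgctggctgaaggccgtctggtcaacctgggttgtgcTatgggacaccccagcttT
Gm9826: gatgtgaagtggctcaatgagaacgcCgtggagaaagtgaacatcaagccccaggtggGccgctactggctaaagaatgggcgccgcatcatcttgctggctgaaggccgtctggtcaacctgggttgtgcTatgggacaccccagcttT

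In this window Gm4737 differs from Ahcy at 2 bases and Gm9826 at 4, and the 2 differences of Gm4737 are shared with Gm9826. The copies took a near-constant share of the Ahcy family's counts, between 48.2% and 50.3% of the summed CPM in each of the 12 libraries. The values below for Ahcy are therefore uncertain as to which copy they come from. Whether 1 pair could be counted for more than 1 of these genes is not given in the sources used here. Among the other members, Mat2a shared 9.15% of its words with 1 gene, the predicted gene Gm9523, and Cbs shared 5.42%, while the remaining 6 shared at most 1.55%.

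None of the 9 enzymes passed the threshold, a Benjamini-Hochberg adjusted p under 0.05 in edgeR's quasi-likelihood test over all genes, in any comparison of conditions. Induction did not change them past that threshold without B12, where 0.073% of the 19174 genes tested passed, nor with B12, where 0.104% passed. The same held for B12 in OSKM cells (1.06% of genes passed), for B12 in MEF cells (1.38% passed) and for the B12 difference averaged over both states (3.84% passed). The test of whether B12 acted differently in OSKM and MEF cells gave 0% of genes with edgeR's quasi-likelihood test, with 273 genes at an unadjusted p under 0.05, and 0 with DESeq2, with 120. At the induction comparisons' shares, a count of 0 of 9 members is near the background and says little about the members.

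At an unadjusted p under 0.05 there were 3 members without B12 (Mat2a, Ahcy and Cth), against 19% of all genes, and 2 with B12 (Ahcy and Cth), against 14.9%. There were 0 members in B12 in OSKM, B12 in MEF and the B12 average, against 9.82%, 10.3% and 15.5% of all genes, and 0 in the interaction, against 1.42%. Median log2 fold changes over the 9 members were 0.05 and 0.06 for induction without and with B12, 0.03 and -0.01 for B12 in OSKM and in MEF, 0.03 for the B12 average and 0.05 for the interaction. The medians over all genes tested were -0.01 or 0.00 in these comparisons.

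**Figure D1:**
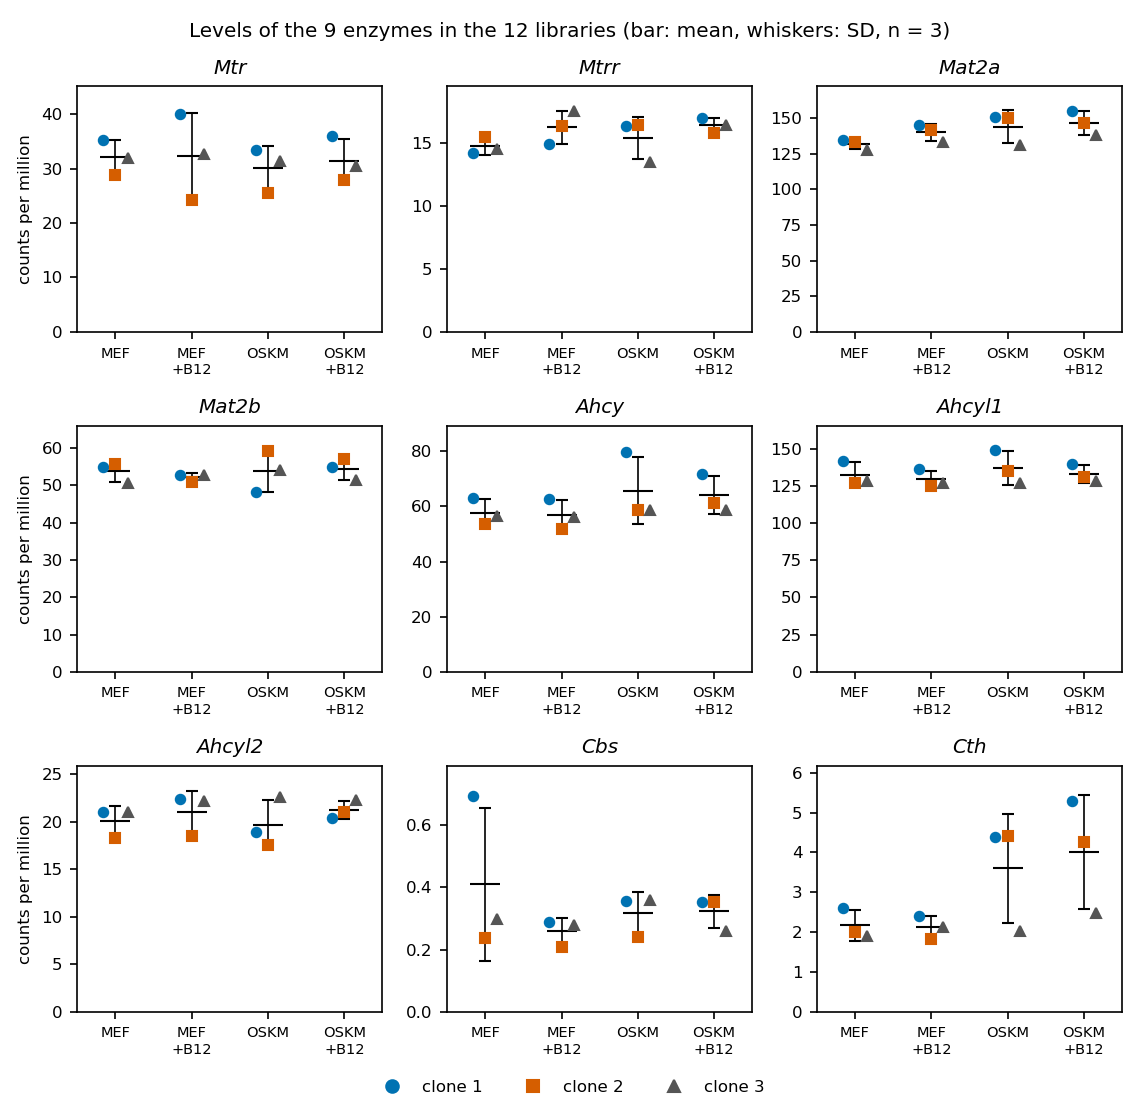
Level of each enzyme in CPM (vertical axes, each from 0) in the 12 libraries, by group, with one symbol per clone, the mean as a bar and the SD over 3 clones as whiskers. Cth stands at 4.26 to 5.29 CPM in induced cells of clones 1 and 2 and at no more than 2.6 CPM elsewhere, while the symbols of Mtr keep the same order of clones in all 4 groups.

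Levels were compared between the genes only per kilobase of annotated exon. Mat2a had the highest level, at 31.4 ± 1.99 CPM per kb (mean ± SD, n = 12 libraries), above 90.9% of the 14680 protein-coding genes tested. Ahcy, without the counts of its copies, followed at 21.8 ± 2.79 and Ahcyl1 at 19.9 ± 1.12 CPM per kb. The ranges of these 2 genes over the libraries overlapped. Mat2b came next at 10.7 ± 0.613 CPM per kb. Mtr at 3.69 ± 0.524 and Mtrr at 3.02 ± 0.229 CPM per kb lay near the middle of all coding genes, above 48.4% and 43.7% of them, and their ranges overlapped.

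Ahcyl2 at 1.12 ± 0.0972 and Cth at 1.07 ± 0.443 CPM per kb also overlapped, and Cbs had the lowest level at 0.0438 ± 0.0169 CPM per kb, above 2.72% of coding genes. The order in the middle depended on the length used. The annotated exons of Ahcyl2 cover 18255 bases but its longest transcript has 5155, and by longest transcript Ahcyl2 stood at 3.98, beside 4.06 for Mtrr and 3.79 for Mtr, while Ahcyl1 at 34.4 stood above Ahcy at 24. Mat2a was highest and Cth and Cbs lowest by either length. The copies of Ahcy held 48.2% to 50.3% of the family's summed CPM. The place of Ahcy, and whether it lies below Mat2a, is therefore uncertain.

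Ratios within a library were taken on the same scale, per kilobase of annotated exon. The catalytic subunit Mat2a stood 2.94 ± 0.238 times above the regulatory subunit Mat2b, with a range of 2.66 to 3.5 over the 12 libraries. Cth stood 25.9 ± 11 times above Cbs, from 10.1 to 48.8 times. These sizes depended on the length used, and the other lengths were added after seeing the data. By longest transcript the ratios were 1.92 ± 0.155 and 33.2 ± 14, and by coding length 2.23 ± 0.181 and 13.6 ± 5.77. Cth, the second enzyme of transsulfuration, stood above Cbs, the first, in every library by each length.

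Mtr (ENSMUSG00000021311, chromosome 13, 12182712 to 12258113, minus strand), the enzyme that uses B12, did not differ past the threshold with B12 or with induction. In clones 1, 2 and 3 it had 35.2, 28.9 and 32 CPM in MEF and 40.05, 24.2 and 32.7 CPM in MEF+B12. Induced cells had 33.4, 25.6 and 31.4 CPM without B12 and 35.9, 27.9 and 30.4 CPM with it. All 4 groups overlapped, and in each of them clone 1 was highest and clone 2 lowest.

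The log2 fold change of Mtr with induction was -0.09 ± 0.08 (SE) without B12 (adjusted p 0.535) and -0.03 ± 0.08 with B12 (adjusted p 0.913). As folds, the 95% intervals were 0.837 to 1.05 and 0.875 to 1.1. The B12 difference was 1.04-fold in OSKM (interval 0.929 to 1.17) and 0.997-fold in MEF (0.889 to 1.12), and averaged over both states it was 1.02-fold (0.94 to 1.11). In MEF cells the clones moved in different directions with B12, with log2 differences of 0.19, -0.26 and 0.03 for clones 1, 2 and 3.

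Mtrr (ENSMUSG00000034617, chromosome 13, 68560780 to 68582149, minus strand) encodes methionine synthase reductase, which returns the oxidised cofactor of methionine synthase to its active form. It had 14.2, 15.5 and 14.5 CPM in MEF, 14.9, 16.3 and 17.5 in MEF+B12 and 17, 15.8 and 16.4 when induced with B12, in clones 1, 2 and 3. Induced cells without B12 had 16.3 and 16.4 CPM in clones 1 and 2, and clone 3 was there the lowest of the 12 libraries. The averaged B12 difference of 0.12 ± 0.06 on the log2 scale was positive in all 3 clones, by 0.07, 0.01 and 0.27, and did not pass the test (adjusted p 0.388, interval -0.02 to 0.25). MEF and MEF+B12 overlapped, as did both induced groups, whereas MEF and OSKM+B12 did not.

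Mat2a (ENSMUSG00000053907, chromosome 6, 72432799 to 72439558, minus strand) encodes the catalytic subunit of the methionine adenosyltransferase found outside the liver. In clones 1, 2 and 3 it had 135, 133 and 128 CPM in MEF and 151, 150.47 and 131 CPM in OSKM. With B12 it had 145, 142 and 133 CPM in uninduced and 155, 147 and 138 CPM in induced cells. Within each clone OSKM was above MEF in both media, but the groups overlapped.

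For Mat2a the log2 fold change with induction was 0.12 ± 0.04 without B12 (1.09-fold, interval 1.02 to 1.16, adjusted p 0.191) and 0.07 ± 0.04 with B12 (adjusted p 0.527). The B12 difference was 0.08 ± 0.04 in MEF (adjusted p 0.572) and 0.03 ± 0.04 in OSKM (adjusted p 0.881). Mettl16, which encodes the RNA methyltransferase that acts on the Mat2a transcript, was at 18.3 to 23.8 CPM and changed by at most 0.07 on the log2 scale in the comparisons of induction and of B12, with no call.

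Mat2b (ENSMUSG00000042032, chromosome 11, 40679314 to 40695203, minus strand), the regulatory subunit, ranged from 48.1 to 59.2 CPM over the 12 libraries. Its lowest and highest libraries were both OSKM libraries, those of clones 1 and 2. The log2 fold change with induction was 0.00 ± 0.07 without B12 (interval -0.14 to 0.15, adjusted p 0.994) and 0.06 ± 0.07 with B12 (adjusted p 0.746).

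Ahcy had 63, 53.5 and 56.7 CPM in MEF and 79.7, 58.6 and 58.7 CPM in OSKM, in clones 1, 2 and 3. With B12 it had 62.6, 51.9 and 56.2 CPM in uninduced cells and 71.9, 61.4 and 58.8 CPM in induced cells. Within each clone the induced library was higher in both media, while the groups overlapped across clones. The log2 fold change with induction was 0.18 ± 0.06 without B12 (adjusted p 0.183) and 0.17 ± 0.06 with B12 (adjusted p 0.224).

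For induction without B12 the log2 fold changes of Gm4737 and Gm9826 were 0.22 and 0.20, near that of Ahcy. With B12 they were 0.16 and 0.07, so Gm9826 changed less. These genes share most of their coding sequence, so their counts are not separate observations. Gm4737 and Gm9826 were at 60.4 and 20.1 CPM in clone 1's OSKM library and at 37.2 to 50.4 and 12.2 to 16.3 CPM in the other 11, so that library stood apart in all 3 genes. Without it, the Ahcy difference without B12 was 0.10 (adjusted p 0.445). When the counts of Ahcy and its copies were added together, a choice made after seeing the data, the difference was 0.19 without B12 (adjusted p 0.174) and 0.15 with B12 (adjusted p 0.288).

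Ahcyl1 (ENSMUSG00000027893, chromosome 3, 107663118 to 107696560, minus strand) and Ahcyl2 (ENSMUSG00000029772, chromosome 6, 29768011 to 29912310, plus strand) encode AHCY-like proteins, best known as partners of the inositol trisphosphate receptor and of ion transporters rather than as hydrolases. Ahcyl1 ranged from 125 to 149 CPM, and its log2 fold changes with induction were 0.05 ± 0.04 and 0.04 ± 0.04 without and with B12, with 95% intervals within -0.05 to 0.14. Ahcyl2 ranged from 17.6 to 22.6 CPM, with log2 fold changes of -0.03 ± 0.07 and 0.02 ± 0.07. Their B12 differences averaged over both states were -0.04 ± 0.03 and 0.09 ± 0.05, and none of these passed the test.

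Cbs (ENSMUSG00000024039, chromosome 17, 31608894 to 31637238, minus strand) encodes cystathionine beta-synthase, the first enzyme of transsulfuration. It had 254 counts over the 12 libraries, between 12 and 40 in each. In clones 1, 2 and 3 it had 0.693, 0.237 and 0.3 CPM in MEF and 0.289, 0.207 and 0.279 CPM in MEF+B12. Induced cells had 0.356, 0.242 and 0.359 CPM without B12 and 0.353, 0.354 and 0.261 CPM with it. The MEF library of clone 1 was highest, and the other 11 lay between 0.207 and 0.359 CPM.

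Small differences in Cbs were not detectable at this depth. Its log2 fold change with induction was -0.29 ± 0.33 without B12, with an interval of 0.496 to 1.34-fold, and 0.32 ± 0.35 with B12, with an interval of 0.739 to 2.12-fold. With B12 in MEF it was -0.61 ± 0.34 (adjusted p 0.613), and most of this was the -1.18 of clone 1 beside -0.17 and -0.09 in clones 2 and 3.

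Cth (ENSMUSG00000028179, chromosome 3, 157894248 to 157925077, minus strand) encodes cystathionine gamma-lyase, which releases cysteine from cystathionine and can also make hydrogen sulfide. It had the largest differences of the 9 members with induction. In clones 1, 2 and 3 it had 2.6, 2.01 and 1.89 CPM in MEF and 4.38, 4.41 and 2.03 CPM in OSKM. With B12 it had 2.41, 1.83 and 2.13 CPM in uninduced and 5.29, 4.26 and 2.47 CPM in induced cells. The 4 induced libraries of clones 1 and 2 were above the other 8, while those of clone 3 lay within the range of the uninduced libraries.

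Over the 3 clones the log2 fold change of Cth was 0.69 ± 0.22 without B12 (1.61-fold, interval 1.15 to 2.24, adjusted p 0.169) and 0.86 ± 0.22 with B12 (1.81-fold, interval 1.3 to 2.52, adjusted p 0.176), so neither passed the threshold. The differences in clones 1, 2 and 3 were 0.75, 1.12 and 0.10 without B12 and 1.12, 1.21 and 0.21 with B12. These 2 comparisons have no library in common, but they use the same 3 clones and come from the same fit, so they are not independent. Without clone 3 the differences were 0.94 (adjusted p 0.0132) and 1.17 (adjusted p 0.00563), both past the threshold, and over all genes 6.87% and 5.22% then passed. Without clone 2 they were 0.45 (adjusted p 0.607) and 0.69 (adjusted p 0.834), and without clone 1 they were 0.65 (adjusted p 0.631) and 0.70 (adjusted p 0.69). With DESeq2 in place of edgeR the adjusted p was 0.0599 without and 0.0185 with B12, and with no filter on low counts it was 0.0425 and 0.0105.

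B12 itself did not change Cth past the threshold, with log2 fold changes of 0.16 ± 0.21 in OSKM (0.816 to 1.53-fold) and -0.01 ± 0.23 in MEF (0.705 to 1.41-fold). The total of 2309 counts was spread as 106 to 360 per library. A transcript annotated on the same strand within the gene, Gm43314, was at no more than 0.0864 CPM.

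Whether the response to induction differed between the 3 clones was tested directly. The test gave 0 of 9 members past the threshold, against 2.15% of all genes. Cth came nearest, with an adjusted p of 0.0661, and the other 8 had adjusted p-values from 0.393 to 0.836. With clones 2 and 3 alone, which share a title year, the test passed for Cth (adjusted p 0.0418), and it did not pass with clones 1 and 3 alone (0.144) or with clones 1 and 2 alone (0.879). With no filter the adjusted p was 0.00413 and with DESeq2 it was 0.105, while leaving out clone 1's OSKM library gave 0.0399. Over all genes, 413 of 19174 passed as reported. Where Cth passed, 724 of 19102 did with clones 2 and 3 alone, 1257 of 33090 with no filter and 838 of 19499 without that library. Clones 1 and 3 alone gave 195 genes, clones 1 and 2 alone 0, and DESeq2 600.

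**Figure D2:**
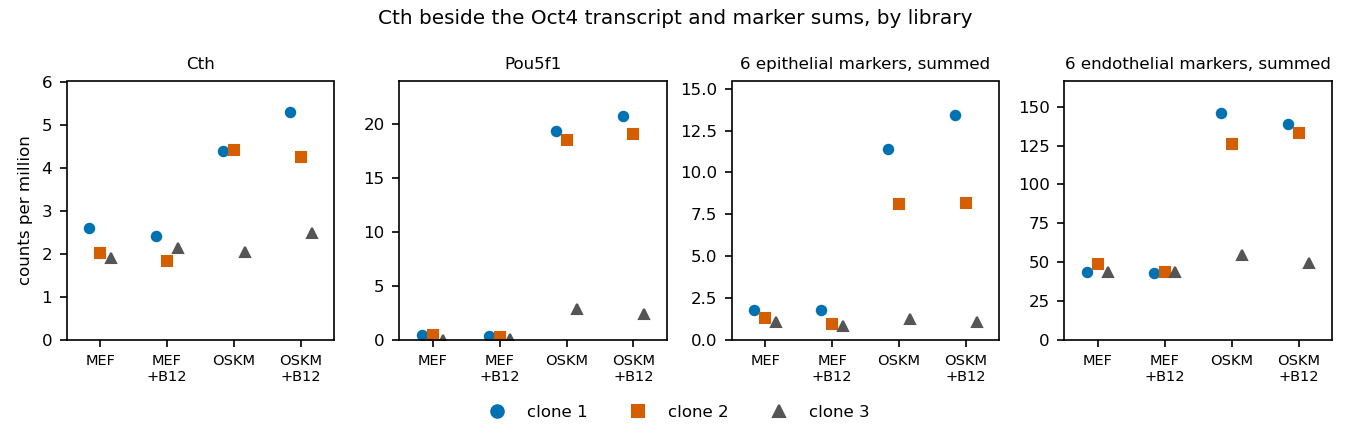
CPM (vertical axes, each from 0) of Cth, of Pou5f1 and of the summed epithelial and endothelial markers in the 12 libraries by group, with one symbol per clone. In all 4 panels induced cells of clones 1 and 2 stand above the others. In induced clone 3, Cth and the epithelial sum lie within the range of the uninduced libraries, while Pou5f1 (2.86 and 2.34 CPM) and the endothelial sum (54.7 and 49.5 CPM) lie above it.

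Other measures were also highest in the 4 libraries in which Cth was highest. Besides Pou5f1, Sox2 was at 13.3 to 17.8 CPM in induced clones 1 and 2, at 2.18 to 2.33 CPM in induced clone 3 and at no more than 0.838 CPM without doxycycline, so that, unlike Cth, Pou5f1 and Sox2 were above the uninduced range in clone 3. The 6 epithelial markers summed to 8.13 to 13.4 CPM in induced cells of clones 1 and 2 and to 0.838 to 1.78 CPM in the other 8. The 6 endothelial markers summed to 126 to 146 CPM in those 4 libraries and to 43 to 54.7 CPM in the other 8, where induced clone 3 was highest. None of these 12 markers was at 0 in every library. Of the epithelial and of the endothelial markers 4 each were tested. For induction without B12 the difference was positive for 3 of the 4 epithelial and for 2 of the 4 endothelial markers. None passed the threshold, against 0.073% of all genes. Their part in the Cth difference was not tested.

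**Figure D3:**
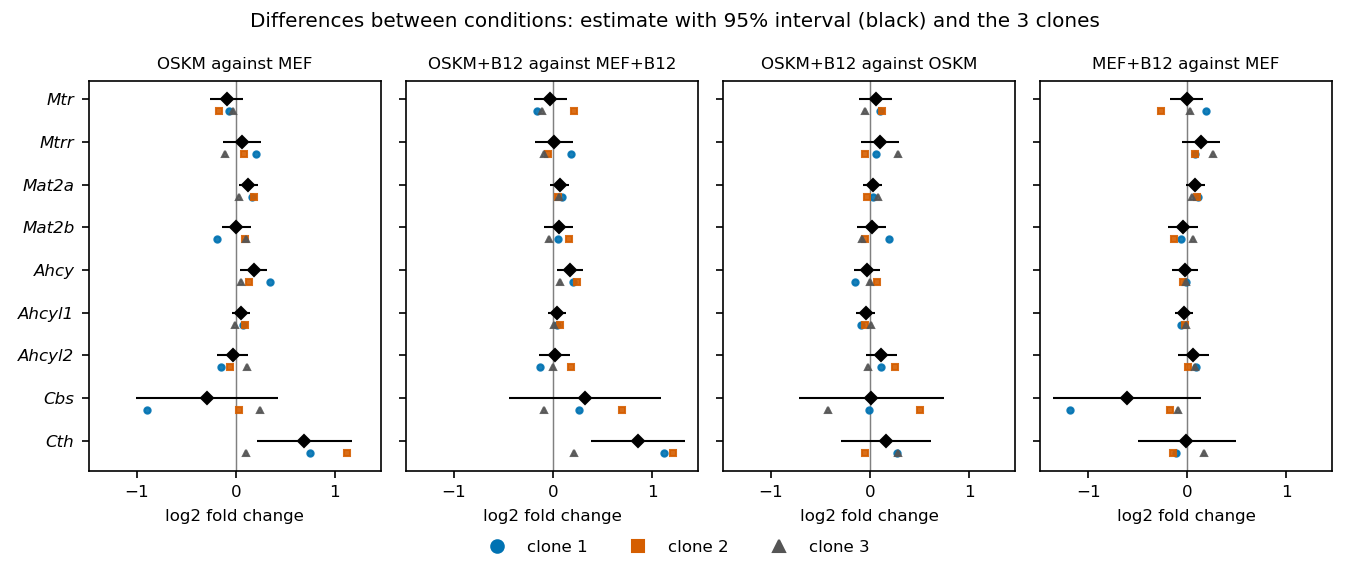
Log2 fold change of each enzyme (horizontal axes) in 4 comparisons, with the estimate and its 95% interval in black and the difference within each clone as a coloured symbol just below. Only the intervals of Mat2a without B12, and of Ahcy and Cth in both comparisons of induction, leave out 0, and no adjusted p of the 9 enzymes was under 0.05.

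The clones differed more than the conditions for most of the members. The level differed between clones for 6 of the 9 members at an adjusted p under 0.05, where 37.8% of all genes did. They were Mtr (adjusted p 0.00135), Ahcy (0.00188), Ahcyl1 (0.013), Mat2a (0.0245), Cth (0.0302) and Ahcyl2 (0.0325), while Mat2b (0.37), Cbs (0.191) and Mtrr (0.831) did not pass. Each clone is 1 embryo, so this describes these embryos. The test took the 4 conditions together, so for Cth it also holds the unequal difference with induction. Uninduced Cth was at 2.6 and 2.41 CPM in clone 1, 2.01 and 1.83 in clone 2 and 1.89 and 2.13 in clone 3. Induced, it was at 4.26 to 5.29 CPM in clones 1 and 2 and at 2.03 and 2.47 CPM in clone 3.

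For Mtr the clones did not overlap. Its 4 libraries lay between 33.4 and 40.05 CPM in clone 1, between 24.2 and 28.9 in clone 2 and between 30.4 and 32.7 in clone 3, and clone 2 was 0.44 and clone 3 was 0.19 lower than clone 1 on the log2 scale. The differences between clones made up 82.3% of the sum of squares of its log2 CPM and those between the 4 conditions 3.15%, against medians of 38% and 24.4% over all genes. The call for Mtr held in all 9 alternatives, with adjusted p-values up to 0.0387, and that highest value came from clones 2 and 3 alone, which share a title year.

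Ahcy was at 62.6 to 79.7 CPM in clone 1 and at no more than 61.4 CPM in clones 2 and 3, and Ahcyl1 was at 136 to 149 CPM in clone 1 and at no more than 135 CPM in the others. With clones 2 and 3 alone their calls were lost, with adjusted p-values of 0.585 and 0.874. Those of Mat2a (0.183) and Cth (0.251) were lost as well, and that of Ahcyl2 (0.0393) was kept. For Ahcyl2 clone 2 was lowest on average, at 18.8 ± 1.47 CPM (n = 4), and its call was lost without clone 2 (adjusted p 0.326) or clone 3 (0.143). Without clone 3, Mat2a (0.549) and Cth (0.112) also did not pass, and without the OSKM library of clone 1 Cth did not (0.0529). With no filter Mat2a did not (0.0774).

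**Figure D4:**
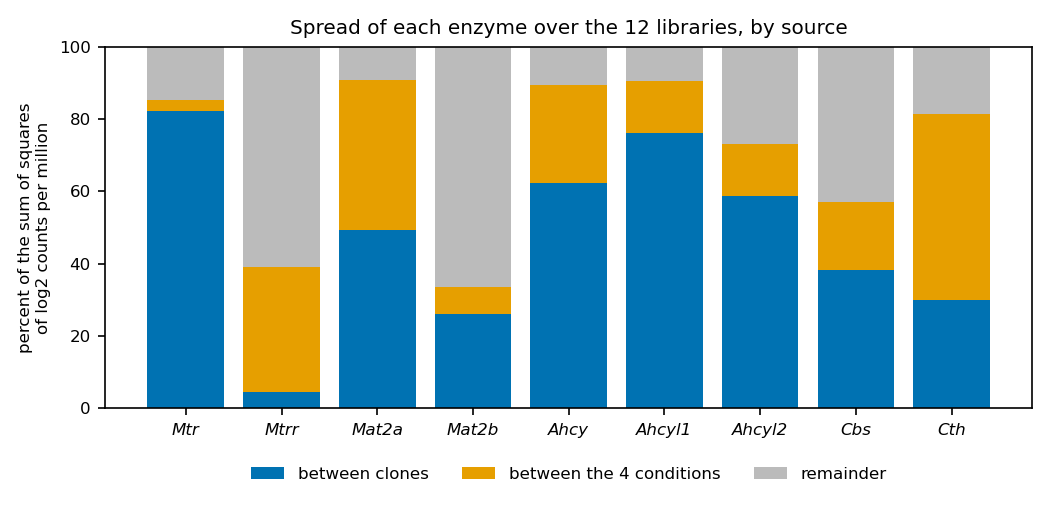
Share of each enzyme's sum of squares of log2 CPM over the 12 libraries (vertical axis, percent) that lay between the 3 clones, between the 4 conditions and in the remainder. The share between clones was 82.3% for Mtr and 4.53% for Mtrr, and Cth had the largest share between conditions, 51.5%.

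The genes whose levels most resembled each member were named by Pearson's r of log2 CPM over the 12 libraries after each clone's mean was subtracted, among 11846 coding genes. For Cth they were Dagla (0.986), Lap3 (0.984) and Itgb4 (0.977). For Ahcy they were Topbp1 (0.988), Irak3 (0.983) and Anxa2 (0.98), and for Mat2a they were Atad3a (0.957), Ruvbl2 (0.946) and Isyna1 (0.944). Mtr was nearest to Fem1b (0.958), Pura (0.947) and Soga1 (0.93), and Mtrr to Gpn3 (0.934), Thumpd3 (0.916) and Mrto4 (0.888).

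Ahcyl1 was nearest to Tmem237 (0.961), Zkscan5 (0.951) and Eif3f (0.948), Ahcyl2 to Exoc8 (0.929), Fbxl5 (0.915) and 2510009E07Rik (0.91), and Mat2b to Shq1 (0.917), Mrm1 (0.917) and Tubgcp6 (0.913). Cbs, with its low counts, was nearest to Glyctk (0.912), Pygo1 (0.873) and Zfp275 (0.821). No member was among the 3 nearest genes of another. The 12 libraries share clones and conditions, so these values are a description only.

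The neighbouring steps were counted from 4 lists. Of the 8 other genes of methionine and SAM synthesis and of remethylation, 4 were tested and none passed in any comparison of conditions. Over all genes 0% to 3.84% passed in these comparisons, so a count of 0 of 4 says little about them. The genes best known from liver were nearly absent. Bhmt2 was at 0 in all 12 libraries, Mat1a and Bhmt had counts in 1 library each (0.0172 and 0.0154 CPM), and Gnmt was at no more than 0.126 CPM, while 5 hepatocyte markers summed to at most 1.43 CPM.

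Of 12 genes of cysteine, sulfide and glutathione metabolism, all tested, none passed for induction. Over all genes 0.073% passed for induction without B12 and 0.104% with it. In the B12 average 2 of the 12 passed, against 3.84% of all genes. Gclm and Gclc, the modifier and catalytic subunits of the enzyme for the first step of glutathione synthesis, were higher with B12 in that average. Gclm had 43.8, 43.3 and 39.2 CPM in MEF and 55.8, 57.4 and 53.2 CPM in MEF+B12, in clones 1, 2 and 3, and the groups did not overlap. The log2 fold change was 0.40 ± 0.06 (adjusted p 0.0125), and averaged over both states it was 0.33 ± 0.04 (adjusted p 0.00156). Gclc passed only in the average, at 0.21 ± 0.05 (adjusted p 0.0392). It differed by 0.30 in MEF (adjusted p 0.0644) and by 0.11 in OSKM (adjusted p 0.633). In OSKM the differences of Gclc in clones 1, 2 and 3 were -0.09, 0.25 and 0.18.

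In OSKM cells Gclm went from 44.1, 37.7 and 41.9 CPM to 48.3, 50.01 and 49.7 CPM with B12, a log2 fold change of 0.26 ± 0.06 that did not pass (adjusted p 0.0964), and the difference between the B12 effects in OSKM and MEF did not pass either. Without clone 2 the averages of Gclm (0.29, adjusted p 0.0724) and Gclc (0.17, adjusted p 0.471) did not pass, and without clone 3 that of Gclc did not (0.20, adjusted p 0.28). The calls for Gclm in MEF were lost without clone 2 (adjusted p 0.297) and without clone 3 (0.12).

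Among 10 SAM-consuming methyltransferases and genes of adenosine removal, 9 were tested and none passed in any comparison of conditions. With 0% to 3.84% of all genes passing, a count of 0 of 9 is near the background and says little about them. Inmt was not tested. Their log2 fold changes ran from -0.29 to 0.27 with induction and from -0.14 to 0.13 with B12.

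Of 7 amino acid carriers, all tested, Slc7a8 and Slc43a2, which carry large neutral amino acids such as methionine and leucine, were higher with B12. In the B12 average these 2 of 7 passed, against 3.84% of all genes. Slc7a8 had 25.8, 19.8 and 13.9 CPM in MEF and 39.3, 26.7 and 23 CPM in MEF+B12, and 20.2, 11.7 and 12.9 CPM in induced cells and 28, 20.4 and 20.6 CPM in induced cells with B12. Slc43a2 had 29.3, 24.9 and 17.5 CPM in MEF and 41.1, 39.4 and 29.5 CPM in MEF+B12, and 19.9, 17.9 and 17.7 CPM in induced cells and 28.3, 29.1 and 26.2 CPM in induced cells with B12. Both rose within every clone in both states, and the groups with and without B12 did not overlap for Slc43a2 in either state and for Slc7a8 in OSKM.

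The averaged B12 difference was 0.61 ± 0.07 on the log2 scale for each of these 2 genes (adjusted p 0.0009 for both), with 0.64 and 0.58 for Slc7a8 in OSKM and MEF (adjusted p 0.0179 and 0.0212) and 0.59 and 0.63 for Slc43a2 (0.0258 and 0.0156). Without clone 2 the average of Slc43a2 did not pass (0.57, adjusted p 0.0895) and that of Slc7a8 did (0.62, adjusted p 0.0471). The calls within 1 state were less stable. In OSKM both genes were lost without any 1 of the 3 clones, with adjusted p-values from 0.0518 to 0.59, and Slc43a2 also without the OSKM library of clone 1 (0.0982). In MEF Slc7a8 was lost without any 1 clone (0.0915 to 0.257) and Slc43a2 without clone 2 (0.47).

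Macrophage markers, in sum, were higher with B12 as well. The 11 markers summed to 1146 to 2226 CPM in MEF and 1737 to 2953 in MEF+B12, and in induced cells to 1155 to 2042 without and 1765 to 2357 with B12. All 11 markers were tested. In the B12 average 10 had a positive difference and 9 passed the threshold, against 3.84% of all genes. The median log2 fold change of the 11 was 0.56, and none was at 0 in every library. The rise of the sum with B12 was 0.41, 0.63 and 0.60 (log2) in MEF and 0.21, 0.77 and 0.61 in OSKM, in clones 1, 2 and 3. The 5 hepatocyte markers, at 0.346 to 1.43 CPM in sum, were also higher with B12 in each clone. The rise of their sum was 1.32, 0.60 and 1.34 (log2) in MEF and 0.77, 1.00 and 0.88 in OSKM. Of the 5, 2 were tested. In the average each of the 2 had a positive difference and 1 passed the threshold. The part of either list in the B12 differences of the carriers, Gclm and Gclc was not tested.

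**Figure D5:**
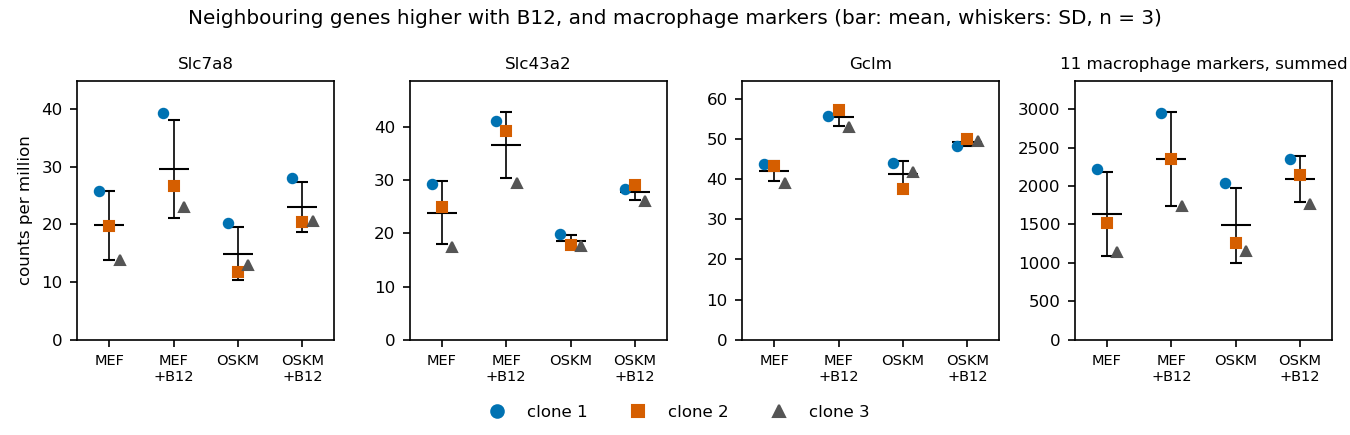
CPM (vertical axes, each from 0) of Slc7a8, Slc43a2, Gclm and the sum of 11 macrophage markers in the 12 libraries by group, with one symbol per clone, the mean as a bar and the SD over 3 clones as whiskers. In every clone and in both states all 4 quantities were higher with B12.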

How the data were processed

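Strand-specific poly(A) RNA libraries were sequenced as read pairs. Per the paper's methods, the authors aligned pairs with STAR (2.5.2 per the submitters' processing notes) to mm10 (GRCm38) and assigned them to genes by featureCounts, reverse stranded. Raw counts were deposited, with the flow cells of a library added together. How pairs matching several places were treated is not given in the sources used here. Each sample's group and clone came from the labels.

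Names, coordinates and exon lengths were taken from GENCODE M21 (GRCm38), which matched 55480 of the 55573 identifiers, all 9 members among them. CPM used TMM factors (0.934 to 1.06). Tests were edgeR 4.0.16 quasi-likelihood F tests (R 4.3.3, limma 3.58.1) in one fit over the 12 libraries with clone and group as terms, filterByExpr by group (19174 genes) and Benjamini-Hochberg adjustment over all genes. A second fit added a clone-by-state term, with B12 nested in state, and tested whether clones responded differently. The script was checked on simulated counts. The biological coefficient of variation was 8.04%. Log2 CPM used a prior count of 2.

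Clone was a block since each embryo gave 1 library per group. Deviations from group means correlated by 0.27 to 0.687 in the 18 same-clone pairs and by -0.51 to 0.17 in the 36 pairs between clones. Subtracting a mean of 3 clones pushes the values between clones below 0, so part of this contrast is built in. The p-values of the comparisons of conditions measure only the spread left after clone and group, and the counts carry no molecular identifiers. Alternatives were DESeq2 1.42.0, its size factors, library totals, no filter, at least 10 counts per library, only the libraries compared, no block, and leaving out a clone or the OSKM library of clone 1. Members, lists and tests were chosen with earlier results of these data known. Named genes are the 9 members, list genes past the threshold in a comparison of conditions, Bhmt, Mat1a, Gnmt and Mettl16, and the 3 most similar genes per member. Others were named after their values were seen. One gene of the naming rule is not reported here. Muscle markers (5) summed to 2.49 to 8.02 CPM, and the 4 factor genes to 135 to 209.72 CPM.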

Additional observations from a re-analysis of the deposited data

Results flagged for a closer look

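Slc1a5, a carrier of neutral amino acids such as glutamine, was the 1 gene of the members and neighbour lists with a response to induction that was not equal in the 3 clones (adjusted p 0.0294), and it was named after its values were seen. It is 1 of 41 genes tested there (2.44%), against 2.15% of all genes, a share near the background. It had 89.5, 103 and 96.3 CPM in MEF and 115, 142 and 96.8 CPM in OSKM, in clones 1, 2 and 3. The log2 differences were 0.36, 0.46 and 0.01 without B12 and 0.41, 0.44 and 0.09 with B12, so clone 3, with the least Pou5f1, changed least. The test did not pass without clone 2 (adjusted p 0.0999) or without clone 3 (0.9).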

How the results depend on the processing

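Over the 6 comparisons of conditions, 582 values of the 9 members were recomputed under the alternatives. In 577 the member did not pass the threshold, as in the values reported, and the 5 that passed were all of Cth. In 46 an estimate near 0 changed sign with no call on either side, the largest being 0.25 in size. DESeq2 gave no adjusted p for Cbs in the clone response.

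Counts over all genes moved more. For induction without B12 the 14 genes became 492 with DESeq2, 681 with no filter, 2 with at least 10 counts in every library, 4 with only the libraries compared and 5 without the OSKM library of clone 1, and for induction with B12 the 20 became 420, 646, 1 and 6 under the first 4 of these. For B12 in OSKM the 204 became 385, 364 with no filter and 108 with only the libraries compared, and for B12 in MEF the 264 became 461, 425 and 845, and 409 with library totals. Leaving out 1 clone gave 1 to 1322, 1 to 1004, 0 to 224 and 0 to 253 genes in these comparisons, 34 to 525 for the B12 average (736 reported), 0 to 724 for the clone response (413) and 1315 to 5425 for the clone differences (7239). The clone response gave 1257 genes with no filter. Without the OSKM library of clone 1 the clone response gave 838 genes, B12 in MEF 334, the B12 average 785 and the clone differences 6994. The cause was not tested. Fewer libraries were in the fits that left a clone out.

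With no replicate block the counts were 0, 0, 0 and 0 for induction without and with B12 and B12 in OSKM and MEF, and 90 for the B12 average. Without the block none of the members passed, and Slc7a8 (adjusted p 0.346), Slc43a2 (0.0586) and Gclc (0.315) did not pass in the B12 average, while Gclm did (0.0285). Depth limits Cbs most, at 12 to 40 counts a library. Ahcy cannot be told apart from its copies.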
